A study of Mus musculus with 7 samples.

Results

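Cholesterol feeding was compared with standard feeding within astrocytes of mice that carry the human cholesteryl ester transfer protein. The comparison uses 5 of the 7 arrays of the study: 3 from CETP transgenic animals given a diet with 1% cholesterol and 2 from CETP transgenic animals on the standard diet. The remaining 2 arrays come from wild-type animals on the standard diet and are used here for their levels and for the shared estimate of the spread. The members are the arrays with those labels, and every difference below is the mean of the cholesterol-diet arrays minus the mean of the standard-diet arrays on the deposited log2 scale. Gene names come from the ID and Symbol columns of the authors' deposited fold change table. Its probe sets were preselected for a difference between these same diet groups, and its fold values were not used here, so a named gene had been picked by the authors for a difference here. Counts over named genes are therefore descriptions and were not tested.

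All 5 CETP animals carried the transgene of the strain B6.CBA-Tg(CETP)5203Tall/J, so both diet groups share it, and the wild-type animals lack it. The labels give the cholesterol diet as lasting 2 months, from 2 to 4 months of age, and give no age of their own for the standard-diet animals. The growth protocol speaks of that diet for transgenic animals in general, and the membership of the standard-diet CETP group therefore rests on its own diet label. By the animal numbers in the labels each array is a separate animal, and its sample is isolated brain astrocytes, which the labels call GLAST positive and describe as taken with a magnetic ACSA-2 kit, with a purity above 70% by flow cytometry for the glial protein GFAP. From each preparation 10 ng of total RNA went onto an Affymetrix mouse array. The remaining cells can be of other types, and in such bulk samples fewer cells of a type and less RNA per cell cannot be told apart. The level of the human transgene was not analysed here.

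Astrocytes make much of the cholesterol used in the brain, load it onto apolipoprotein E and pass it to neurons, since lipoprotein cholesterol in plasma hardly crosses the blood-brain barrier. Cells sense sterols in the endoplasmic reticulum: when sterols are low, the transcription factor SREBP2, encoded by Srebf2, is released and drives genes of cholesterol synthesis and uptake, and when sterols are abundant it is retained and liver X receptors instead drive genes of efflux. CETP exchanges cholesteryl esters and triglycerides between plasma lipoproteins, and mice have no CETP gene of their own.

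The 5 CETP arrays were alike in overall level. Their median over 22195 features, which are probe sets with 1 kept for each named gene, lay between 7.51 and 7.58, their negative-control medians lay between 7.53 and 7.66, and their pairwise correlations across features ran from 0.980 to 0.992. The hybridization spike-in level was 11.41, 11.21 and 11.77 on cholesterol-diet arrays 1, 2 and 3 and 11.02 and 11.22 on standard-diet arrays 4 and 5. The value with this level as a covariate is given beside the median of each group with at least 4 named genes. Among the single genes given here it turned the direction of Ebp, Lcn2, Lrp10 and Sox9. Of the features, 44.35% were under the negative-control median on each of the 7 arrays, where a value cannot be told from background.

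Standard-diet array 4 stood apart in genes of microglia, the immune cells of the brain. The median level of 20 named microglial genes was 10.57 on that array. It was 7.90, 7.27 and 8.08 on the cholesterol-diet arrays, 7.56 on standard-diet array 5, and 7.45 and 7.32 on wild-type arrays 2 and 3. Values without array 4, which leave 1 standard-diet array, are therefore given beside the gene group medians.

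No feature passed an adjusted p of 0.05 (limma with Benjamini-Hochberg adjustment over 22195 features, 0.0% called, lowest adjusted p 0.9996), and 676 features (3.05%) had an unadjusted p under 0.05. A second, model-free count took features whose diet groups did not overlap, with every array of one group above every array of the other. This held for 2200 features (9.91%) with the cholesterol-diet arrays higher and for 1895 (8.54%) with them lower. Neither share exceeded what a random order of so few arrays gives on average. A lack of overlap is therefore a description of the values only. The 3.05% at an unadjusted p under 0.05 was likewise below the share that this threshold gives when no feature differs. Of the 1592 named genes, 681 had the higher mean on the cholesterol diet and 911 the lower, and 327 (48.02%) and 381 (41.82%) of these did not overlap between the diet groups. The named genes had been selected for this contrast, so their larger shares say nothing about the diet, and the same holds for each count of named genes that did not overlap. Leaving out each CETP array in turn kept the sign of the difference in 1399 of the named genes. Of the 1592, 891 lay above the negative-control median on every array, and 400 did so on no array.

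The 2 standard-diet arrays seldom stood apart from the cholesterol-diet mean in the same gene by a large amount. Of the named genes, 154 were more than 1 log2 unit above that mean on array 4 and 141 were so on array 5, and 4 genes were so on both. Over all 22195 features these counts were 224, 194 and 5. The 4 genes, named after their values were seen, were B2m, Igtp, Irf7 and the predicted gene Gm18853. The first 3 belong to the interferon response. The remaining feature above on both arrays was the unnamed probe set TC0700004002.mm.2. In the other direction 19 named genes lay more than 1 unit below the mean on array 4 and 97 on array 5. Over all features 30 and 151 did so, and 3 did so on both arrays. Of these 3, the unnamed probe sets TC0300002504.mm.2 and TC0900000438.mm.2 had differences of 1.59 and 1.14. The 1 named gene was Actg1, which encodes cytoplasmic gamma-actin. Actg1 measured 10.17, 8.71 and 10.92 on the cholesterol-diet arrays and 8.90 and 8.80 on the standard-diet arrays. Its groups overlapped, since cholesterol-diet array 2 was the lowest of the 5.

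**Figure D1:**
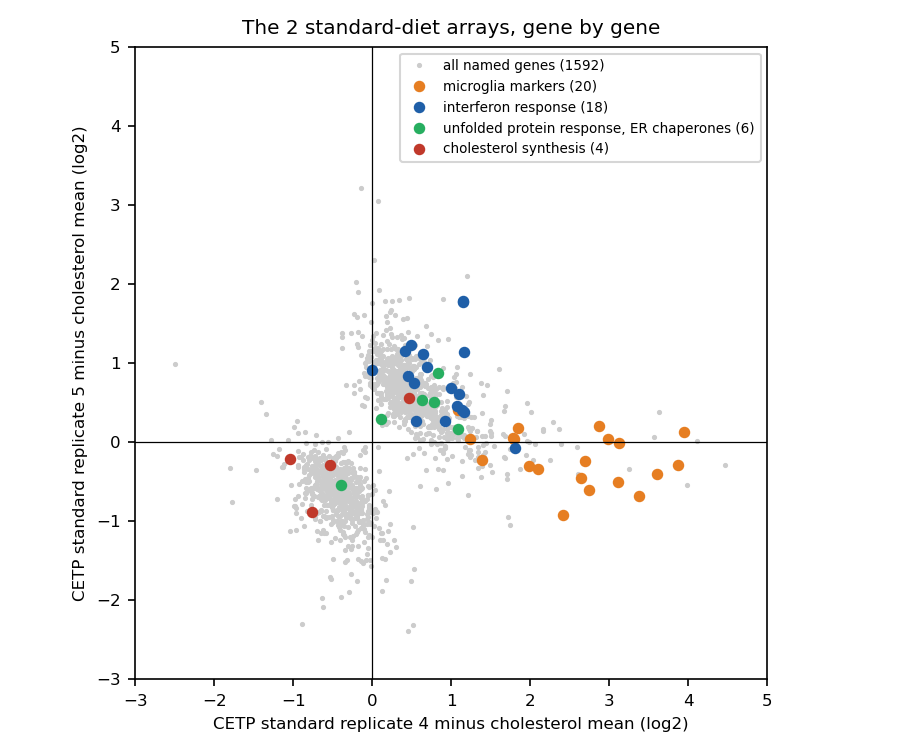
Each point is 1 of the 1592 named genes, placed by its log2 value on standard-diet array 4 (horizontal axis) and array 5 (vertical axis), each minus the mean of the 3 cholesterol-diet arrays. The 20 microglial genes run along the horizontal axis, high on array 4 and near 0 on array 5, while most of the 18 interferon-response genes lie above 0 on both axes.

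Genes of sterol sensing and synthesis lay mostly higher on the cholesterol diet, by less than 1 log2 unit. Of 20 genes of cholesterol synthesis, 4 were named, 3 with a higher mean and 1 with a lower, with a median difference of 0.52. Their median was 0.25 without standard-diet array 4, 0.65 without array 5 and 0.22 with the spike-in level as a covariate. Of 11 genes of the SREBP pathway, 4 were named, again 3 higher and 1 lower, with a median of 0.57 that was 0.58 without array 4, 0.39 without array 5 and 0.30 with that covariate.

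Mvk, the mevalonate kinase, measured 8.15, 7.84 and 8.13 against 7.51 and 7.75 without overlap, close to the negative-control level. Ebp, the sterol isomerase, went the other way, with 9.19, 10.00 and 8.67 against 9.75 and 9.85. Its groups overlapped, and its difference of -0.51 became 0.04 with the spike-in covariate.

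Srebf2 measured 15.88, 15.28 and 15.84 on the cholesterol diet and 15.23 and 14.73 on the standard diet, with 15.38 and 14.99 in wild type. The diet groups did not overlap, although cholesterol-diet array 2 and standard-diet array 4 were nearly level, and the difference was 0.69 ± 0.27. Srebf1, which encodes the SREBP form that drives fatty acid synthesis, measured 12.52, 12.09 and 12.98 against 12.19 and 11.33. Its difference of 0.77 ± 0.32 was carried mostly by standard-diet array 5, without which it was 0.34. Mylip, a ubiquitin ligase of lipoprotein uptake and a liver X receptor target, measured 11.36, 11.31 and 11.69 against 12.84 and 11.53. Its difference of -0.73 ± 0.36 was -0.08 without standard-diet array 4. Cholesterol-diet array 2 was the lowest of its group for Srebf2, Srebf1, Mvk and Mylip.

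**Figure D2:**
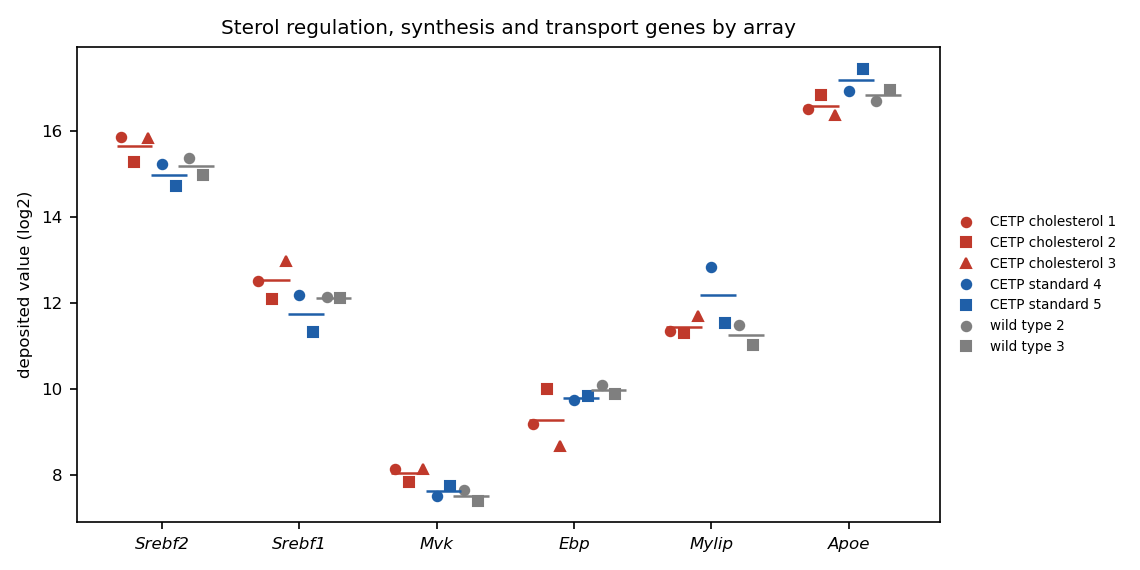
Deposited log2 value (vertical axis) of 6 genes of sterol regulation, synthesis and transport on each of the 7 arrays, with a short line at each group's mean. Srebf2 and Mvk show the 3 cholesterol-diet arrays above both standard-diet arrays, and Apoe shows them below.

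Apoe, which encodes the lipoprotein that carries cholesterol out of astrocytes, had the lower mean on the cholesterol diet. It measured 16.53, 16.85 and 16.39 against 16.95 and 17.46, and 16.72 and 16.97 in wild type. The diet groups did not overlap, and the difference was -0.62 ± 0.24. The other named gene of the 20 on the efflux and liver X receptor list, Arl4c, lay below the negative-control median on every array.

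The 4 named lipoprotein receptors of 14 all had the higher mean on the cholesterol diet, with a median of 0.47 (0.49 without array 4 and 0.17 with the spike-in covariate), and 1 of them, Sorl1, did not overlap. Sorl1 encodes a sorting receptor that binds both apolipoprotein E and the amyloid precursor protein, and it measured 12.58, 12.28 and 12.89 against 12.10 and 12.04. Its difference of 0.51 ± 0.23 was 0.54 without standard-diet array 4, 0.48 without array 5 and 0.20 with the covariate. Lrp1, the large receptor for apolipoprotein E, had a difference of 0.50, which was 0.18 without array 5, and Lrp10 had one of 0.26, which became -0.24 with the covariate.

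Genes of amyloid precursor processing lay on the same side. The 4 named genes of 16 had higher means by 0.51 to 0.56, with a median of 0.51 that was 0.74 without array 4, 0.33 without array 5 and 0.70 with the spike-in covariate. Sorl1, given above among the lipoprotein receptors, is 1 of the 4, so the lists are not separate. Of the 4, 3 did not overlap, beside 9.91% of all features and 48.02% of the higher named genes. Aplp1, the amyloid precursor-like protein, measured 17.00, 16.65 and 16.23 against 16.18 and 16.07. Ncstn, which encodes the nicastrin subunit of gamma-secretase, measured 13.56, 13.40 and 13.31 against 13.22 and 12.50, so that standard-diet array 5 carried most of its difference. The fourth gene, Ide, the insulin-degrading enzyme that also cleaves amyloid-beta, measured 13.72, 13.46 and 12.82 against 13.63 and 11.999. Its difference of 0.52 was -0.30 without standard-diet array 5.

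Of 26 astrocyte markers 3 were named, and they did not move as a group. Slc1a3 encodes GLAST, the glutamate transporter by whose name the labels call these cells, and it measured 13.61, 12.67 and 13.68 against 12.62 and 12.20, with 12.59 and 11.59 in wild type. The diet groups did not overlap, yet cholesterol-diet array 2 was nearly level with standard-diet array 4. The difference was 0.91 ± 0.38, and 0.39 with the spike-in covariate. Sox9, a transcription factor of the astrocyte lineage, measured 15.29, 14.43 and 15.31 against 14.68 and 14.70 and overlapped, and its difference of 0.32 became -0.10 with that covariate. Apoe, given above, was lower. All 3 lay far above the negative-control median on each array, and the other markers on the list carry no name here. Of 37 genes linked to reactive astrocytes 7 were named, 1 higher and 6 lower. Their median of -0.54 was -0.50 without array 4, -0.90 without array 5 and -0.43 with the spike-in covariate. Of the 7, 4 kept their sign with each array left out, and 2 lay above the negative-control median on all 7 arrays. Psmb8, Hspb1 and Cd14 are also counted on other lists below. The higher one, Lcn2, which encodes a secreted lipocalin, measured 9.35, 6.70 and 8.24 against 5.61 and 9.09. Its difference of 0.75 was -0.99 without array 4 and -0.43 with the spike-in covariate.

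The named genes with the largest differences among those that did not overlap are given next, the higher ones first. Mboat7, which adds arachidonic acid to lysophosphatidylinositol, measured 10.88, 10.17 and 11.30 on the cholesterol diet and 9.90 and 8.48 on the standard diet, with 11.10 and 8.87 in wild type. The difference of 1.59 ± 0.63 was the largest of the higher ones, and was 0.89 without standard-diet array 5 and 0.94 with the spike-in covariate. The wild-type arrays lay farther apart than the standard-diet arrays. Hadh, the mitochondrial 3-hydroxyacyl-CoA dehydrogenase of fatty acid oxidation, measured 12.07, 12.01 and 12.43 against 11.55 and 10.08, and its difference of 1.35 was 0.62 without array 5. Blcap, whose transcript is a known target of RNA editing, measured 12.97, 12.92 and 13.57 against 12.52 and 11.18. The ubiquitin ligase gene Lrsam1 measured 11.62, 11.51 and 12.19 against 11.25 and 10.04. In these 4 genes standard-diet array 5 was the lowest of the 5 CETP arrays by more than 1 log2 unit below array 4.

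Cptp, which encodes a carrier of ceramide-1-phosphate, shared that pattern with 8.20 on array 4 and 7.02 on array 5. Lingo1, a neuronal and oligodendroglial receptor component that limits myelination, had both standard-diet arrays close together, at 11.06 and 10.91, but its cholesterol-diet values of 12.19, 11.07 and 12.81 reached down to them. Hif3a, a hypoxia-inducible factor subunit, measured 9.65, 8.88 and 9.76 against 8.23 and 8.70, with 7.87 and 8.14 in wild type, and its difference of 0.96 ± 0.29 stayed at or above 0.73 over the arrays left out and was 0.55 with the spike-in covariate. Reep2, which shapes the endoplasmic reticulum, differed by 0.96, Gpaa1, a subunit of the enzyme that attaches lipid anchors to proteins, by 0.90, Shisa9, an auxiliary protein of AMPA receptors, by 0.89 and Ptprf, a receptor tyrosine phosphatase, by 0.89. Ranked by the smallest difference with any array left out, the leading higher genes included Mboat7, Hif3a, Tspan1, Slc1a3, Reep2, KIAA1211L and Fzd2. Tspan1, a tetraspanin, measured 9.42, 9.85 and 9.74 against 8.92 and 8.80. For Fzd2, a Wnt receptor, the values were 15.39, 14.43 and 15.24 against 14.29 and 14.07.

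Among the 12 leading lower genes, B2m, the light chain of MHC class I, measured 11.50, 12.08 and 11.84 on the cholesterol diet and 12.96 and 13.59 on the standard diet, with 11.32 and 12.42 in wild type. The difference was -1.47 ± 0.35, or 2.76-fold lower, and stayed at or beyond -1.15 with any array left out. Cd74, the invariant chain of MHC class II, measured 7.02, 6.81 and 8.20 against 8.96 and 8.28, and cholesterol-diet array 3 came close to standard-diet array 5. Gm18853, a predicted gene, measured 6.88, 6.82 and 5.81 against 7.70 and 8.60, near and below background on the cholesterol diet. Calb2, which encodes the calcium-binding protein calretinin, was lower by 1.13, Dpysl3, a cytoskeletal protein of growing axons, by 1.06, Fmnl1, a formin that assembles actin, by 1.06 and Ppp1cc, a catalytic subunit of protein phosphatase 1, by 1.06. Nrsn1 and Gkn3 owed most of their differences to standard-diet array 4, which went from -1.22 to -0.49 and from -1.20 to -0.38 without it. Lmo7, which links actin to cell junctions, measured 7.82, 7.98 and 7.65 against 9.05 and 8.67, but 9.18 and 7.06 on the 2 wild-type arrays.

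**Figure D3:**
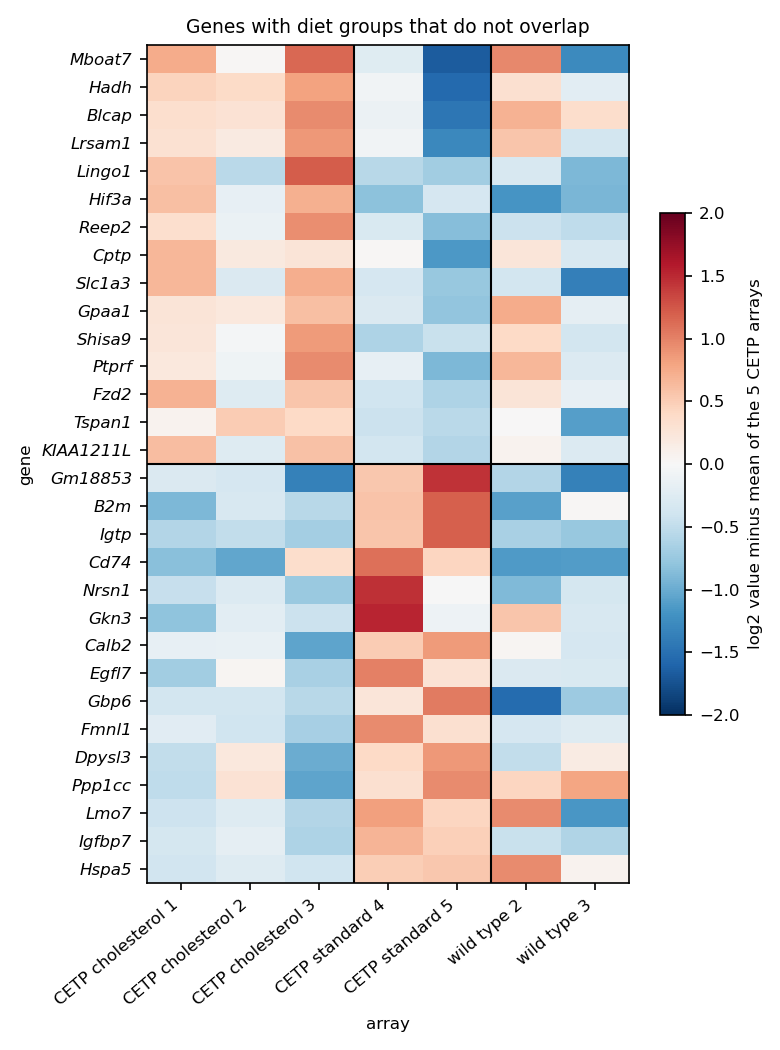
Each row is a named gene whose diet groups did not overlap and each column an array, with colour giving the log2 value minus the gene's mean over the 5 CETP arrays. Standard-diet array 5 is the deepest blue of the CETP arrays in Mboat7, Hadh, Blcap and Lrsam1, whereas in Hspa5 and Igfbp7 the 2 standard-diet arrays have nearly the same colour.

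Interferon-induced genes had lower values on the cholesterol diet than on the standard diet. Of 45 genes on this list 18 were named, all 18 had the lower mean on the cholesterol diet, and the median difference was -0.80. Of the 18, 13 did not overlap, beside 8.54% of all features and 41.82% of the lower named genes. The median was -0.79 without standard-diet array 4, -0.96 without array 5 and -0.75 with the spike-in covariate. Relative to the wild-type mean of each gene, the median over the 18 was 0.37, 0.21 and 0.04 on the cholesterol-diet arrays, 1.12 and 1.12 on the standard-diet arrays, and 0.15 and -0.15 on the wild-type arrays. By these medians the cholesterol-diet arrays lay nearer to wild type than the standard-diet arrays did. Of the 18 genes, 11 exceeded background on every array. In Igtp and Irf7 the cholesterol-diet and wild-type values all lay below background, which limits what their nearness shows. The microglial genes had another order. Their median relative to wild type was 0.87, 0.10 and 0.90 on the cholesterol-diet arrays. It was 3.18 on standard-diet array 4 and 0.51 on array 5. The interferon median of -0.79 without array 4 rests on array 5 as the only standard-diet array. Whether cell content contributed to the interferon difference was not tested. The authors' selection fixed which interferon genes carry a name, so the count of 18 is read against the 911 of 1592 named genes that were lower.

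Interferon acts through transcription factors such as STAT2 and IRF9, which bind interferon-stimulated response elements in promoters. The search looked for GAAANNGAAA on both strands of the 250 bases before each RefSeq gene start, in the GRCm38.p6 build. It was found in 3.463% of 27025 promoters, and in 5 of the 12 named interferon genes whose promoter was listed. The windows below are shown because they carry the letters through which this gene group is known to respond. Each runs 5′ to 3′ along the gene's strand, and capitals mark the match, which in Stat2 reads on the other strand and in Bst2 and Irgm1 is a pair of overlapping matches.
B2m: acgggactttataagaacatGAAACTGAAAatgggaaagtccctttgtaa
Igtp: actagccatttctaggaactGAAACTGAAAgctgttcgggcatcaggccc
Irgm1: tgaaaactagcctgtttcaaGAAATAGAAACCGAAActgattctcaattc
Bst2: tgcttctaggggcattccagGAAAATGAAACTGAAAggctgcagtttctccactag
Stat2: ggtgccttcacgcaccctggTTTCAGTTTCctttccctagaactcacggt
They lie at chr2:122147528-122147577 on the + strand for B2m, chr11:58199502-58199551 on the + strand for Igtp, chr11:48871421-48871470 on the - strand for Irgm1, chr8:71537567-71537622 on the - strand for Bst2 and chr10:128270256-128270305 on the + strand for Stat2. The same 10 letters stand in B2m, Igtp and Bst2 and, on the other strand, in Stat2. A match describes the sequence and does not show a bound site.

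Igtp, an interferon-induced GTPase that acts against intracellular parasites, had little spread among the cholesterol-diet arrays. It measured 6.91, 6.999 and 6.82 on the cholesterol diet, 8.05 and 8.68 on the standard diet and 6.84 and 6.73 in wild type. Both standard-diet arrays were the highest of the 7, and the difference was -1.46 ± 0.23, or 2.75-fold lower. Its cholesterol-diet and wild-type values all lay below the negative-control median of their array. Their small spread and the size of the difference are therefore limited by background. Irf7, the factor that amplifies the type I interferon response, measured 5.35, 5.27 and 5.38 against 6.49 and 6.47. Its groups lay far apart relative to their spread, but every value was below the negative-control median, so its level is within background. Ly6e, an antiviral membrane protein, measured 13.64, 13.61 and 13.50 against 14.58 and 14.27, and 12.98 and 12.67 in wild type, where it was the lowest. Its difference of -0.84 ± 0.21 was -0.69 without array 4 and -0.99 without array 5.

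Other members that did not overlap were Psmb8 and Psmb9, subunits of the immunoproteasome, with differences of -0.85 and -0.86, the antiviral genes Samd9l (-0.82) and Rtp4 (-0.77), Irf9 (-0.78), the GTPase gene Irgm1 (-0.64), the interferon-signal inhibitor Usp18 (-0.64) and the DNA sensor gene Ifi204 (-0.60). Bst2, which tethers budding viruses, did overlap: it measured 8.62, 8.31 and 8.26 against 10.20 and 8.32, and its difference of -0.87 was 0.07 without array 4. Stat2 was carried by the other array, with 10.09, 9.90 and 9.91 against 9.96 and 10.88. Ifi27, Ifi44 and the RNA sensor gene Ddx58 also overlapped between the diet groups. Outside this list, Gbp6, another interferon-induced GTPase, measured 9.53, 9.53 and 9.34 against 10.14 and 10.93, and Iigp1, from the reactive astrocyte list, 7.14, 7.15 and 6.39 against 7.40 and 7.95.

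**Figure D4:**
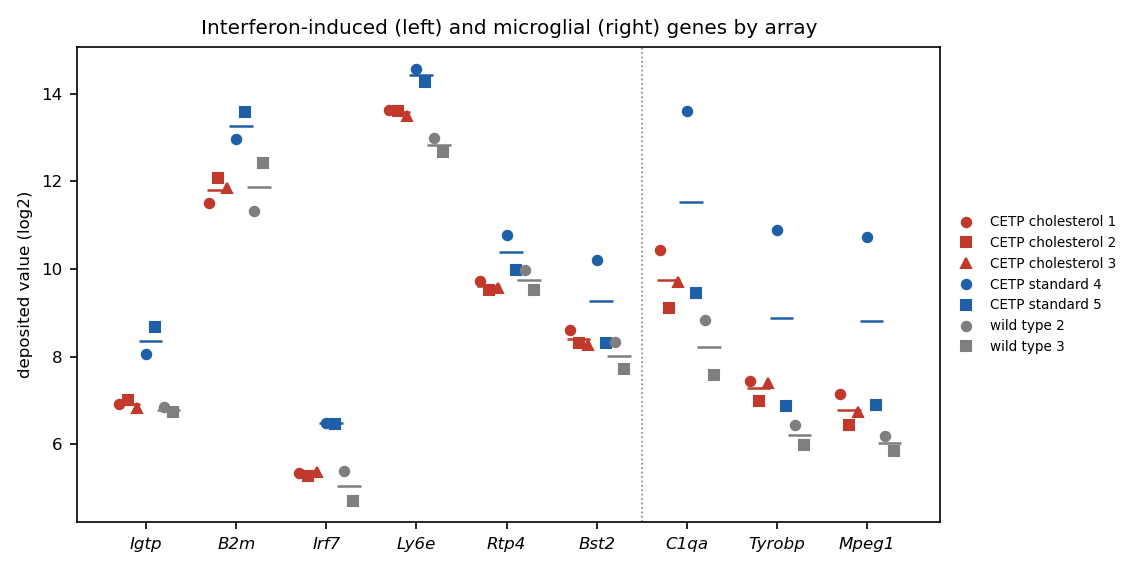
Deposited log2 value (vertical axis) of 6 interferon-induced genes, left of the dotted line, and 3 microglial genes, right of it, on each of the 7 arrays, with a short line at each group's mean. In Igtp, B2m, Irf7, Ly6e and Rtp4 both standard-diet arrays lie above the cholesterol-diet arrays, whereas in C1qa, Tyrobp, Mpeg1 and Bst2 standard-diet array 4 stands alone.

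Microglial genes gave the lowest median of the lists with at least 4 named genes, and it rested on 1 array. Of 30 microglial markers 20 were named, all 20 had the lower mean on the cholesterol diet, and the median difference was -1.08. Only 1 of the 20, Olfml3, did not overlap between the diet groups, which is 5.0% of them against 8.54% of all features. All 20 lay more than 1 log2 unit above the cholesterol-diet mean on standard-diet array 4 and none did on array 5. Of all 22195 features 224 did so on array 4 and 194 on array 5, and of the 1592 named genes 154 and 141. Without array 4 the median became 0.23, without array 5 it became -2.67, and with the spike-in covariate it was -1.02. Of the 20, 6 lay above the negative-control median on all 7 arrays.

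C1qa, a chain of the complement initiator C1q made by microglia, measured 10.44, 9.10 and 9.70 on the cholesterol diet, 13.62 and 9.46 on the standard diet and 8.85 and 7.59 in wild type. Array 4 was the highest by more than 3 log2 units, and array 5 lay within the cholesterol-diet values. Tyrobp, the signalling adaptor of microglial receptors, measured 7.44, 6.99 and 7.40 against 10.88 and 6.87, and its receptor partner Trem2 measured 7.14, 6.24 and 6.92 against 10.14 and 6.09. The pore-forming protein gene Mpeg1 measured 7.15, 6.44 and 6.73 against 10.72 and 6.90. For the lysosomal protease gene Ctss the values were 11.84, 10.82 and 11.01 against 13.92 and 10.99. The 8 named genes of the disease-associated microglia list had a median of -1.02, which was -0.10 without array 4, -2.31 without array 5 and -0.70 with the spike-in covariate. Clec7a, a pattern receptor of that list, measured 4.76, 5.33 and 5.38 against 8.79 and 5.54 and did not overlap, while array 4 was its single value above background.

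With standard-diet array 5 left out, limma called 14 features at an adjusted p of 0.05, each of them lower on the cholesterol diet. That fit sets the 3 cholesterol-diet arrays against array 4, and assumes that a lone array varies as the arrays of the other groups do. The named ones were Slc15a3, Mpeg1, Clec7a, Tyrobp, Cst7, Trem2, Aif1, Laptm5, Gpr34, Cd68, Tbxas1 and Bcl2a1a, of which the last shares near-identical copies and is uncertain, and 2 probe sets had no name. The 2 probe sets without a name had identical values on every array, so they are not separate measurements. Tbxas1 and Bcl2a1a were named after their values were seen. Without array 4 no feature passed, and 1108 had an unadjusted p under 0.05.

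Of 19 complement genes 7 were named, 1 higher and 6 lower. Their median of -0.65 was 0.40 without array 4 and -0.37 with the spike-in covariate. C1qa, C1qb and C1qc are counted among the microglial genes too, so the likeness of these lists rests partly on shared members. Only 1 of the 7 exceeded background on every array, while 3 stayed below it throughout. Perivascular macrophage and monocyte markers had 2 named genes of 13, Cd14 and S100a8, and both lay near or below background outside array 4. Immediate early genes, which are switched on within minutes of a stimulus, had 3 named members of 31, all with lower means, and their median of -0.53 became 0.030 without array 4. The largest, Atf3, measured 10.45, 9.86 and 10.45 against 12.65 and 10.22.

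Vessel genes were divided between those high on both standard-diet arrays and those high on array 4. Of 29 endothelial markers 10 were named, 2 higher and 8 lower, with a median of -0.57 that was -0.12 without array 4 and -0.51 with the spike-in covariate. Igfbp7, an extracellular protein of vessel walls that binds insulin-like growth factors, measured 11.91, 12.07 and 11.64 against 12.94 and 12.73, with 11.81 and 11.65 in wild type. Both standard-diet arrays were the highest of the 7, and the difference of -0.96 ± 0.21 was -0.86 without array 4 and -1.06 without array 5. Egfl7, an endothelial matrix protein, measured 9.94, 10.69 and 10.00 against 11.66 and 10.93 without overlap. Kdr, the receptor for vascular endothelial growth factor, measured 8.53, 8.64 and 8.78 against 9.28 and 8.99, also without overlap. By contrast Tek, the angiopoietin receptor, measured 8.21, 8.90 and 8.06 against 9.70 and 8.46, and its difference of -0.69 was -0.07 without array 4. Podxl, a sialomucin of the vessel surface, was one of the 2 with a higher mean, and ranged from 11.24 to 12.98 on the cholesterol diet.

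Among pericyte and smooth muscle markers 5 of 25 were named, 2 higher and 3 lower. Their median of -0.40 became 0.024 without array 4 and was -0.55 with the spike-in covariate. Igfbp7, given above among the endothelial markers, is counted here too, so these lists are not separate. Pdgfrb, the receptor that marks pericytes, measured 12.85, 12.63 and 13.22 against 12.51 and 12.21, whereas Rgs5, another pericyte gene, measured 8.07, 8.002 and 8.22 against 8.77 and 8.54. Neither overlapped, and they lay in opposite directions. Of 20 ependymal and choroid plexus markers 6 were named, all lower on the cholesterol diet, with a median of -0.62 that was -0.90 without array 4, -0.56 with the spike-in covariate and -0.15 with array weights. Relative to wild type their medians were 0.17, -0.68 and -0.99 on the cholesterol-diet arrays and 0.03 and 0.33 on the standard-diet arrays, so cholesterol-diet array 1 lay with the standard-diet arrays. Ttr, the thyroid hormone carrier made by the choroid plexus, measured 16.70, 15.46 and 14.99 against 16.17 and 16.67. Otx2, a transcription factor of that epithelium, was the 1 member that did not overlap.

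Oligodendrocyte markers, with 4 of 23 named, were 2 higher and 2 lower, with a median of -0.11 that was -0.36 without array 4 and turned to 0.34 with the spike-in covariate. Olig2, the lineage transcription factor, measured 14.25, 13.23 and 13.95 against 13.31 and 12.80, and Enpp2, an abundant secreted enzyme of myelinating cells, 14.99, 14.64 and 14.08 against 14.70 and 15.54. Both overlapped. Neuron markers had 3 named genes of 36, 1 higher and 2 lower. Camk2a, a kinase subunit of excitatory synapses, measured 9.23, 8.81 and 9.14 against 9.04 and 8.04, each of the 5 above the negative-control median. Its groups overlapped. The neuronal vesicle genes Chgb and Syn1 were lower, with differences of -0.50 each and without overlap, at levels near or below background. No oligodendrocyte precursor or blood cell marker was named.

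**Figure D5:**
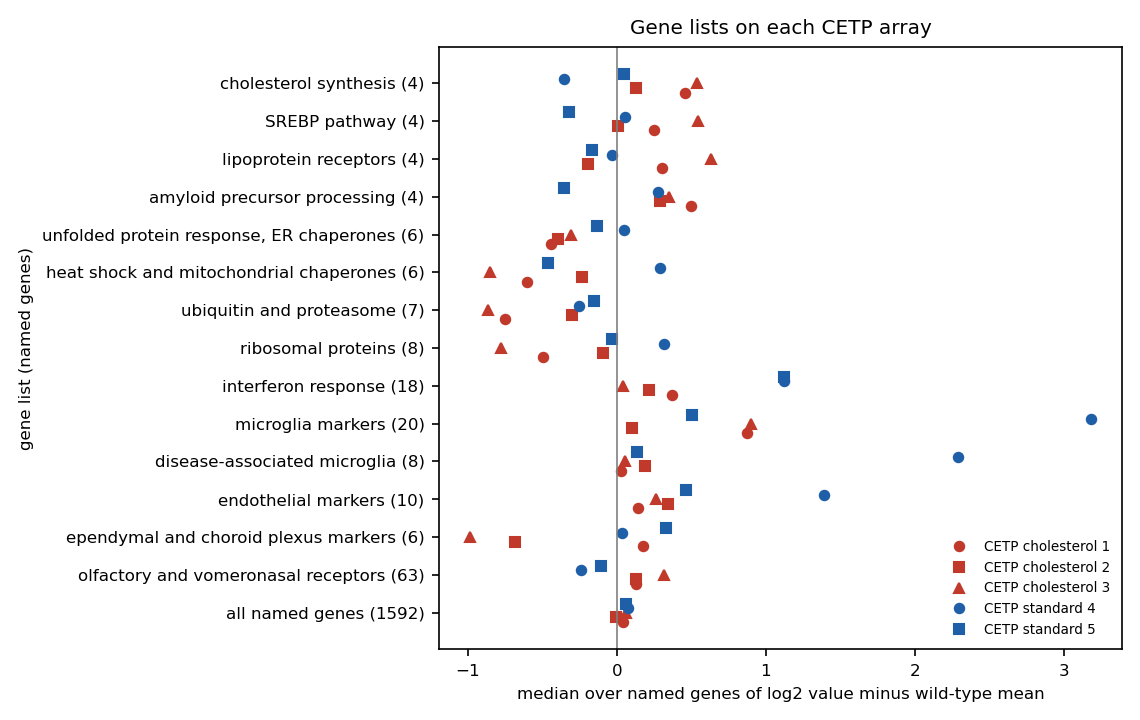
For each gene list, the horizontal position is the median over its named genes of the log2 value minus the wild-type mean, with 1 point for each of the 5 CETP arrays and the number of named genes in brackets. The interferon list has both standard-diet arrays at 1.12 and the cholesterol-diet arrays between 0.04 and 0.37, while in the microglial list standard-diet array 4 stands at 3.18 and array 5 at 0.51.

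Chaperone genes of the endoplasmic reticulum lay lower on the cholesterol diet. Of 31 genes of the unfolded protein response, by which a cell adds folding capacity when unfolded proteins collect there, 6 were named, 5 lower and 1 higher. Their median was -0.60, and it was -0.40 without standard-diet array 4, -0.70 without array 5 and -0.52 with the spike-in covariate. Of the 5 lower genes 4 did not overlap, beside 8.54% of all features and 41.82% of the lower named genes. In each of the 6 both standard-diet arrays lay on the same side of the cholesterol-diet mean, which held for 60.73% of all features and 88.57% of named genes.

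Endoplasmic reticulum stress elements are the promoter letters through which these genes are known to be induced. The search for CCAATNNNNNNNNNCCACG on both strands of the same 250 bases found it in 0.13% of 27025 promoters and in 3 of the 6 named genes, which are shown for that reason with the match in capitals. In Derl3 and Creld2 the match reads on the other strand.
Hspa5: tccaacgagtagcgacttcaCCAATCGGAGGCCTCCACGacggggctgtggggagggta
Derl3: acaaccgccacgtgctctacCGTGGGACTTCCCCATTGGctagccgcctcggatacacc
Creld2: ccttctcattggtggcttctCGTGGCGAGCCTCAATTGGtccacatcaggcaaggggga
These windows lie on the + strand at chr2:34772005-34772063 for Hspa5, chr10:75893222-75893280 for Derl3 and chr15:88819500-88819558 for Creld2, in GRCm38.p6. The sterol regulatory element, searched as TCACNCCAC, was found in 1.225% of promoters and in none of the 5 named sterol genes with a listed promoter, which says only that these letters are not in that window.

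Hspa5, which encodes the chaperone BiP, measured 12.47, 12.60 and 12.46 on the cholesterol diet, 13.34 and 13.39 on the standard diet and 13.80 and 12.93 in wild type. The CETP arrays separated by diet with little spread within each, and wild type reached above both. The difference was -0.86 ± 0.26, or 1.81-fold lower, and stayed at -0.83 or beyond over the arrays left out. Creld2, a secreted protein induced with BiP, measured 9.54, 10.15 and 9.63 against 10.55 and 10.28, and 11.02 and 10.42 in wild type. Edem1, which sends misfolded glycoproteins to degradation, measured 8.82, 9.16 and 8.74 against 9.53 and 9.44, with wild type at 8.82 and 8.96, on the cholesterol-diet side. The disulfide isomerase gene Pdia4 measured 12.50, 12.69 and 12.69 against 13.71 and 12.79, and its difference of -0.62 was -0.16 without array 4. Derl3 overlapped, and it and Chac1, the 1 higher gene, lay below background on every array.

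Heat shock and mitochondrial chaperones had 6 named genes of 27, all with lower means and a median of -0.53 (-0.29 without array 4 and -0.23 with the spike-in covariate), and 1 did not overlap. Hspa8, the constitutive cytosolic chaperone, was that gene, with 15.13, 15.40 and 15.04 against 15.85 and 15.64. The mitochondrial chaperonin genes Hspe1 and Hspd1, which sit head to head on chromosome 1, measured 10.52, 10.80 and 10.26 against 11.34 and 10.74, and 7.71, 8.06 and 7.06 against 8.53 and 7.99. Array 5 lay within the cholesterol-diet values in both. Hsph1 and Hspb1, which respond to heat, were high on array 4 (14.42 and 12.01) and low on array 5 (11.76 and 9.22). The heat shock element GAANNTTCNNGAA, searched on both strands, was found in 0.514% of promoters and in 2 of the 5 named genes with one. These 2, Hspe1 and Hspd1, share a single stretch between them, shown on the strand of Hspe1 (chr1:55088039-55088096, + strand, GRCm38.p6) with a pair of overlapping matches in capitals.
Hspe1: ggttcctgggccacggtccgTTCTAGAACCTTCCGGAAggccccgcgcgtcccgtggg
The differences of Hspe1 and Hspd1 were -0.51 and -0.65, and the diet groups overlapped in both. Standard-diet array 5 lay only 0.21 and 0.38 above the cholesterol-diet mean. On the cholesterol diet Hspd1 lay near the negative-control median. A link between the shared stretch and these differences was not tested.

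Genes of protein turnover and synthesis had mostly lower means. Of 37 ubiquitin and proteasome genes 7 were named, 6 lower and 1 higher, with a median of -0.52 (-0.60 without array 4 and -0.24 with the spike-in covariate). Of the 6 lower genes 3 did not overlap, a share near the 41.82% of all lower named genes and beside 8.54% of all features. Psmd13, a subunit of the regulatory cap of the proteasome, measured 9.10, 9.55 and 9.02 against 9.63 and 10.38, and Psmd2 measured 11.09, 11.20 and 10.70 against 11.90 and 11.31. The 8 named genes whose symbols start as those of ribosomal proteins were 7 lower and 1 higher, with a median of -0.63 (-0.35 without array 4 and -0.24 with the spike-in covariate). This group includes genes named as kinases of ribosomal protein S6, Rps6kc1 and Rps6ka2. The 1 higher gene was Rps6ka2, so no gene of a ribosomal protein itself was among the higher ones. Rps29 measured 13.41, 13.77 and 12.86 against 14.15 and 13.95 and did not overlap, and Rps21 measured 10.79, 11.77 and 10.62 against 12.20 and 11.76, so that it overlapped at cholesterol-diet array 2. Across both groups cholesterol-diet array 2 lay nearest to the standard-diet arrays, with medians relative to wild type of -0.30 for the proteasome genes and -0.09 for the ribosomal ones.

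The 2 wild-type arrays allow the named genes to be placed against another group. The wild-type mean lay between the diet means in 367 of the 681 higher genes and 450 of the 911 lower ones. It lay beyond the cholesterol-diet mean in 93 and 239 and beyond the standard-diet mean in 221 and 222. For the higher genes the median value relative to wild type was 0.48, 0.13 and 0.55 on the cholesterol-diet arrays and -0.02 and -0.24 on the standard-diet arrays. For the lower genes it was -0.31, -0.10 and -0.43 against 0.16 and 0.33. In both directions cholesterol-diet array 2 lay closest to wild type of its group.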

How the data were processed

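RNA from isolated astrocytes was hybridized to Affymetrix mouse arrays. The deposited value table holds normalized log2 values for 28846 entries on 7 arrays, per the labels and the values themselves, and the summarization method is not given in the sources used here. The 22206 probe sets with IDs starting TC or TS were kept. Of 1778 probe sets in the authors' deposited table of differences, 1522 matched a RefSeq symbol on the probe set's chromosome, 164 carried several genes, 78 were not found, 11 lay on another chromosome and 3 gave no chromosome. Those with several genes or another chromosome were left out, and those not found or without a chromosome kept the table's symbol, so that 1603 named probe sets gave 1592 genes. For genes with several probe sets 1 was kept, which left 22195 features. limma 3.58.1 in R 4.3.3 was fitted to 3 group means over all 7 arrays (4 residual degrees of freedom, 5.39 prior), with two-sided p-values adjusted by Benjamini-Hochberg, and was tested on simulated data. Nothing in the labels says that replicates with the same number share an animal or batch, and their number limits the precision. Exact permutation of 3 against 2 arrays cannot reach a p of 0.05.

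The text names, in each direction, the 12 genes with the largest difference and the 8 most stable with an array left out, both among genes that did not overlap and lay above the negative-control median in the higher group, up to 4 genes of each list by size, a set of genes of interest, and 2 unnamed probe sets. Members of the 31 gene lists and 13 symbol families, and the lists themselves, were chosen with earlier results of these data known. Promoter sequences are from RefSeq, build GRCm38.p6. Other normalizations, filters, covariates, weights and left-out arrays were tried. Figures were drawn with matplotlib 3.10.9. Some items the naming rule picks are not reported here, and counts over lists include them.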

Additional observations from a re-analysis of the deposited data

How the results depend on the processing

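The count of 0 features at an adjusted p of 0.05 was the same in every alternative except without standard-diet array 5, where it was 14, so that the arrays left out gave 0 to 14. The 676 features at an unadjusted p under 0.05 became 339 when features had to lie above the negative-control median on at least 2 arrays, since fewer were tested, and 1940 with array weights. They ran from 365 without cholesterol-diet array 1 to 1129 without array 2. The 4095 features whose diet groups did not overlap became 2113 with that filter and ran from 6026 to 11696 with an array left out, since fewer arrays overlap less often. Of the 109 genes given here, 94 kept their direction with each array left out and 105 in each other setting, and of the 29 lists with at least 4 named genes 23 and 24 did. With arrays left out, list medians that changed sign ran from -2.67 to 0.23 for microglia, -0.67 to 0.024 for pericytes, -0.36 to 0.17 for oligodendrocytes, -1.71 to 0.40 for complement, -0.11 to 0.056 for hypoxia and -0.29 to 0.17 for potassium channels. Gene differences that changed sign ran from -3.13 to 0.017 for Aif1, -2.39 to 0.030 for Atf3, -1.81 to 0.074 for Bst2, -3.87 to 0.29 for C1qa, -1.39 to 0.30 for Cd14, -2.74 to 0.61 for Cd68, -2.69 to 0.23 for Ctss, -1.75 to 1.05 for Hspb1, -1.71 to 0.95 for Hsph1, -0.30 to 1.33 for Ide, -0.99 to 2.49 for Lcn2, -0.18 to 1.75 for Podxl, -0.92 to 0.0020 for Stat2, -3.37 to 0.68 for Trem2 and -3.60 to 0.41 for Tyrobp. With the spike-in level as a covariate the sign changed for Ebp (0.042), Lcn2 (-0.43), Lrp10 (-0.24), Sox9 (-0.10) and the oligodendrocyte median (0.34). Array weights turned the medians of oligodendrocytes (0.10), hypoxia (0.0091), potassium channels (0.26) and Rab GTPases (0.13). Group medians in place of means turned oligodendrocytes (0.015) and Rab GTPases (0.0034), quantile normalization turned Rab GTPases (0.032), and the filter turned hypoxia (0.50) and predicted genes (0.53). The cause was not tested, apart from the array left out. No paired analysis was possible because the diet groups share no replicate number. Levels near the negative-control median and the small number of arrays limit what can be resolved.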

Other observations

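Olfactory and vomeronasal receptor genes, which serve smell in sensory neurons, were the largest named family. Of 63 named genes, 48 had the higher mean on the cholesterol diet and 15 the lower, and the median difference was 0.51, which was 0.37 without standard-diet array 4 and 0.34 with the spike-in covariate. The groups did not overlap in 30 of the higher and 5 of the lower, beside 9.91% and 8.54% of all features and 48.02% and 41.82% of the named genes of each direction. Their median level was 5.53, 5.57 and 5.59 on the cholesterol-diet arrays, 5.21 and 5.32 on the standard-diet arrays and 5.41 and 5.40 in wild type, and 59 of the 63 lay above the negative-control median on no array. Vmn2r90 measured 5.50, 5.18 and 5.37 against 4.94 and 4.24, and Olfr913, one of the lower ones, 4.86, 5.31 and 4.89 against 6.05 and 5.84. The differences of this family are thus differences between values at background level. In the authors' classes, G-protein coupled receptors, which include this family, were 75 higher and 34 lower of 109 named genes, and 12 of them lay above the negative-control median on all 7 arrays.

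Other classes of the authors' table leaned the other way. Kinases were 27 higher and 52 lower of 79, transporters 30 and 59 of 89, transmembrane receptors 9 and 25 of 34, and products placed in the nucleus 105 and 197 of 302, beside 681 higher and 911 lower of all named genes.

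Genes of insulin and FoxO signalling had 4 named members of 26, with 3 higher and 1 lower. Their median of 0.46 was 0.56 without array 4 and 0.15 with the spike-in covariate. The lower gene was Igfbp7, which is counted among the vessel genes too. Foxo3, a transcription factor held out of the nucleus by insulin signalling, measured 7.85, 7.55 and 7.62 against 7.41 and 6.80 without overlap, and 6.27 and 6.47 in wild type. It lay above the negative-control median only on cholesterol-diet arrays 1 and 3, so its level is near or within background. Fatty acid and glycerolipid metabolism had 1 higher and 3 lower of 4 named genes, with a median of -0.49 that was -0.35 without array 4 and -0.078 with that covariate. Of these, Dagla, which makes the endocannabinoid 2-arachidonoylglycerol, measured 12.47, 11.99 and 12.37 against 11.48 and 11.67, with 12.50 and 12.52 in wild type. The glycerol kinase gene Gk measured 9.29, 9.56 and 8.87 against 9.82 and 10.31, with 10.52 and 10.57 in wild type. Neither gene overlapped between the diet groups. Wild type lay on the cholesterol-diet side for Dagla and on the standard-diet side for Gk.

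Among probe sets without a name, TC0700004002.mm.2 measured 7.84, 7.92 and 7.59 on the cholesterol diet, 9.08 and 9.80 on the standard diet and 7.56 and 7.97 in wild type, a difference of -1.65 ± 0.26. TC1400002841.mm.2 differed by -1.05 ± 0.24, TC0500001773.mm.2 by 0.87 ± 0.22 and TC1800001651.mm.2 by 0.80 ± 0.22, and the last 2 lay below the negative-control level on each array.

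The remaining lists and families are given by their counts and medians. Solute carriers were 14 higher and 20 lower, with a median of -0.40 that was -0.31 without array 4 and -0.24 with the spike-in covariate. Predicted genes and cDNA clones were 23 and 27, with a median of -0.38 that was -0.16 and -0.20 in these settings. Zinc finger proteins were 4 and 5, with a median of -0.36 that was -0.54 and -0.080. Rab GTPases were 3 and 3, with a median of -0.02 that was -0.10 and -0.13. The other groups had at most 4 named genes. Glycolysis and lactate transport had 3 higher and 1 lower, with a median of 0.37 that was 0.44 without array 4 and 0.056 with the covariate. The hypoxia response had 2 and 2, with a median of -0.08 that was -0.11 and -0.036, and potassium channels 2 and 2, with one of -0.04 that was -0.26 and -0.24. Splicing factors had 1 and 3, with a median of -0.49 that was -0.57 and -0.20, and translation factors 1 and 3, with one of -0.56 that was -1.05 and -0.69. Oxidative phosphorylation, with 3 named genes, had 1 higher and 2 lower, histones 2 and 1, and collagens and laminins 3 and 0. Oxidative stress had 2 lower genes, the cell cycle 1, and glutamate handling the gene Slc1a3 alone. No microRNA or small nucleolar RNA gene was named.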
